A study of Mus musculus with 3 samples.

Results

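The 7 genes described here encode enzymes that make glucose and dispose of amino acids in the liver: Pck1, G6pc, Fbp1 and Pcx of gluconeogenesis, and Tat, Agxt and Got1 of amino acid catabolism. They were taken by name from 21550 genes in the table of one library and 22517 in that of the other, 23860 different genes in all, and were followed in hepatocyte-like cells, across the lobule, and in immune cells. The study asked how glucose metabolism relates to the death of Kupffer cells, the resident macrophages of the liver, in mice with steatotic liver disease. Single liver non-parenchymal cells were captured by BD Rhapsody, which counts mRNA molecules by their unique molecular identifiers (UMIs), prepared from the supernatant of a spin at 50 g.

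There was 1 library per diet. The first, called the NCD library here, is described in the methods as wild-type C57BL/6J mice on a normal chow diet. Its title is MCD, a name that the methods use for a methionine and choline deficient diet, its header reads APAP0h, and its table was matched to it by elimination, so the diet rests on that reading. The second, called the HFHC pool, holds wild-type mice and Chi3l1-/- mice (Chil1-/- in the title), which lack chitinase 3-like 1, after 16 weeks of a high-fat, high-cholesterol diet. No genotype is given per cell in the table used here, so the pool mixes both genotypes. The age, the number of mice per library, feeding state and time of day at cell isolation are not given in the sources used here. Diet, genotype, animals and library cannot be told apart, and no difference between the libraries has a replicate check. All intervals below are 95% intervals that cover counting error only.

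In fasting, the liver makes glucose from lactate, glycerol and amino acids. Pyruvate carboxylase (Pcx) forms oxaloacetate, phosphoenolpyruvate carboxykinase (Pck1) turns it into phosphoenolpyruvate, fructose bisphosphatase (Fbp1) takes off a phosphate further up, and glucose-6-phosphatase (G6pc) releases free glucose. Glucagon through cAMP, glucocorticoids and FOXO factors raise transcription of Pck1 and G6pc, and insulin lowers it. Tyrosine aminotransferase (Tat) is a classical glucocorticoid-induced gene, alanine-glyoxylate aminotransferase (Agxt) clears glyoxylate and feeds alanine carbon towards glucose, and cytosolic aspartate aminotransferase (Got1) moves aspartate and reducing equivalents between compartments in most cell types. Gluconeogenesis and amino acid use are strongest in hepatocytes near the portal vein (periportal), and glutamine synthesis and much drug metabolism lie near the central vein (pericentral).

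The promoters of the 4 members that were past 2-fold lower in the HFHC pool are shown. Any link between their motifs and their levels was not tested. Each is the 250 bases before a RefSeq transcript start on build GRCm38.p6, all on the plus strand, and all 7 members were matched to the RefSeq tables. Capitals mark matches on either strand to any of 4 motifs. The half-site of the cAMP response element was searched as TGACG. The FOXO site was searched as GTAAACA. The half-site of the glucocorticoid receptor was searched as TGTTCT. The TATA box was searched as TATAAA. The spans are chr2:173152823-173153072 for Pck1, chr11:101367466-101367715 for G6pc, chr8:109990186-109990435 for Tat and chr1:93134990-93135239 for Agxt.
Pck1: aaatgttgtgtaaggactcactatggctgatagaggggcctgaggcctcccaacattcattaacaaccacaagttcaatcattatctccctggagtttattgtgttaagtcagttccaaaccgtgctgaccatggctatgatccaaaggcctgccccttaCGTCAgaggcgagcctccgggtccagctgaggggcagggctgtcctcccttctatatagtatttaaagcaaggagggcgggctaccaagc
G6pc: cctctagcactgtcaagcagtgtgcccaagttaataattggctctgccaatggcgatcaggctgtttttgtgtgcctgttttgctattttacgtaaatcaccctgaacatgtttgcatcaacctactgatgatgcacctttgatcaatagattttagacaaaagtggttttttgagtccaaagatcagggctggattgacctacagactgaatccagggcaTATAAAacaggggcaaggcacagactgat
Tat: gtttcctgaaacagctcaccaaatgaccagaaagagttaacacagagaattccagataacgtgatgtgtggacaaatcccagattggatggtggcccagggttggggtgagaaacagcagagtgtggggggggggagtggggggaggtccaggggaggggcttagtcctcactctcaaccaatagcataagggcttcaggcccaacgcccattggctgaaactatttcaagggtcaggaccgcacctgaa
Agxt: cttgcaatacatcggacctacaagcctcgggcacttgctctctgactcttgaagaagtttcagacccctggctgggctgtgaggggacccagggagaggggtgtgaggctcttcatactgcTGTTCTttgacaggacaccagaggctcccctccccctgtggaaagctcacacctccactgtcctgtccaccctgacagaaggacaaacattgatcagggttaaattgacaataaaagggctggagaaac

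The Pck1 promoter held 1 cAMP response element half-site, read as CGTCA on the gene's strand, beginning at position -90 from the start. Such a half-site was present in 17.8% of 32851 mouse promoter windows of this length. G6pc held a TATA box at -29 (12.4% of windows) and Agxt a glucocorticoid receptor half-site at -129 (16.1% of windows). The Tat window held none of the 4 motifs, and no member's window held GTAAACA, which was in 3.17% of windows. The windows of Fbp1 and Got1, and both of Pcx, held none of the 4. The other genes lie at chr13:62864753-62888298 (Fbp1), chr19:4510472-4621752 (Pcx) and chr19:43499752-43524605 (Got1) on the same build. The Tat window precedes a start inside the annotated gene, which spans chr8:109986078-109999804.

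After filtering, the NCD library held 23346 cells and 49509045 UMIs and the HFHC pool 19625 cells and 52044785 UMIs. Cells were clustered together without the 7 members among the clustering features, and clusters were named from marker genes, so that each class below means cells like that type. Hepatocyte-like cells were 7052 (30.2% of those kept) in the NCD library, against 8877 (45.2%) in the pool, the largest class in each. The methods speak of non-parenchymal cells and the labels of parenchymal ones. All 10 hepatocyte markers were detected in both, and their summed level was 41422 CPM (UMIs per 1000000 UMIs of the summed cells) against 28883, compared with 1135 and 1046 in immune-like cells. The hepatocyte-like cells were shallow, holding 520 UMIs each at the median for NCD and 1168 for the pool, and mitochondrial genes made up a median of 1.31% and 0.353% of their UMIs. RNA of immune markers was also present in them. All 9 genes of the Kupffer cell list were detected, summing to 361 CPM in NCD hepatocyte-like cells and 128 CPM in those of the pool, and all 8 of the neutrophil list, summing to 692 and 38.9 CPM. The part of depth, mitochondrial share and immune RNA in the library differences was not tested. A cluster of 3657 pool cells and 9 NCD cells stayed unnamed for its low depth and is not counted among these classes. Its pool cells held Pck1 at 538 CPM, G6pc at 33.9, Fbp1 at 1343, Pcx at 258, Tat at 627, Agxt at 197 and Got1 at 263 CPM. A second unnamed cluster, with 719 NCD and 1567 pool cells, was led by T cell genes such as Foxp3, Tcf7 and Lef1 and is not among the immune-like cells. Its Got1 level was 34.3 CPM (NCD) and 46.4 CPM (pool). The 2 tables share 756 cell index numbers out of 30734 and 21601 cells.

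Pck1, G6pc, Tat and Agxt were each lower in hepatocyte-like cells of the HFHC pool than in those of the NCD library, by 2.96 to 4.02-fold, while Fbp1 was 1.40-fold higher, Pcx 1.06-fold higher and Got1 1.26-fold lower. Of the 7 members, 4 were past 2-fold lower and 0 past 2-fold higher. Among the 9053 genes that reached 100 UMIs over the libraries combined, 7.47% were past 2-fold lower in the pool and 5.6% past 2-fold higher. The median log2 ratio (HFHC pool over NCD, 1 UMI added) was -1.57 over the members and 0.08 over all genes tested. The members were chosen with earlier results of these data known, so their contrast with all genes is a description only.

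Pck1, which commits oxaloacetate to glucose synthesis, stood at 3406 CPM (3356 to 3457) in the NCD library and 848 CPM (833 to 863) in the pool. Its log2 ratio was -2.01 (-2.04 to -1.97), and only 0.906% of the genes tested had a lower ratio. G6pc, the last step of glucose output, stood at 117 CPM (107 to 126) against 31.4 CPM (28.6 to 34.4), a log2 ratio of -1.89 (-2.07 to -1.72). For both genes the counting intervals of the libraries lie far apart.

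Fbp1, which opposes phosphofructokinase, went the other way, with 1189 CPM (1159 to 1219) in the NCD library and 1662 CPM (1641 to 1683) in the pool. Its log2 ratio was 0.48 (0.44 to 0.52). Pcx, the mitochondrial entry step, stood at 290 CPM (276 to 306) against 309 CPM (301 to 318), and its log2 ratio of 0.09 (0.01 to 0.18) sat near the median of all genes and was -0.0009 with each cell weighted equally. The 4 gluconeogenic members therefore did not share a direction.

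Tat, which starts the breakdown of tyrosine, stood at 2244 CPM (2203 to 2285) in the NCD library and 739 CPM (726 to 753) in the pool, a log2 ratio of -1.60 (-1.64 to -1.56). Agxt stood at 729 CPM (706 to 753) against 246 CPM (238 to 254), a log2 ratio of -1.57 (-1.63 to -1.50). Got1 stood at 329 CPM (314 to 346) against 262 CPM (254 to 270), a log2 ratio of -0.33 (-0.41 to -0.25). Scaled to 24 secreted hepatocyte genes instead of all UMIs, the median of all genes moved from 0.08 to 0.62, Got1 turned to 0.21 and Fbp1 passed 2-fold at 1.02. Under that scaling 2.51% of genes were past 2-fold lower and 22.9% past 2-fold higher. Pck1 (-1.47), G6pc (-1.35), Tat (-1.06) and Agxt (-1.03) had smaller ratios and remained past 2-fold lower, Tat and Agxt only just.

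**Figure D1:**
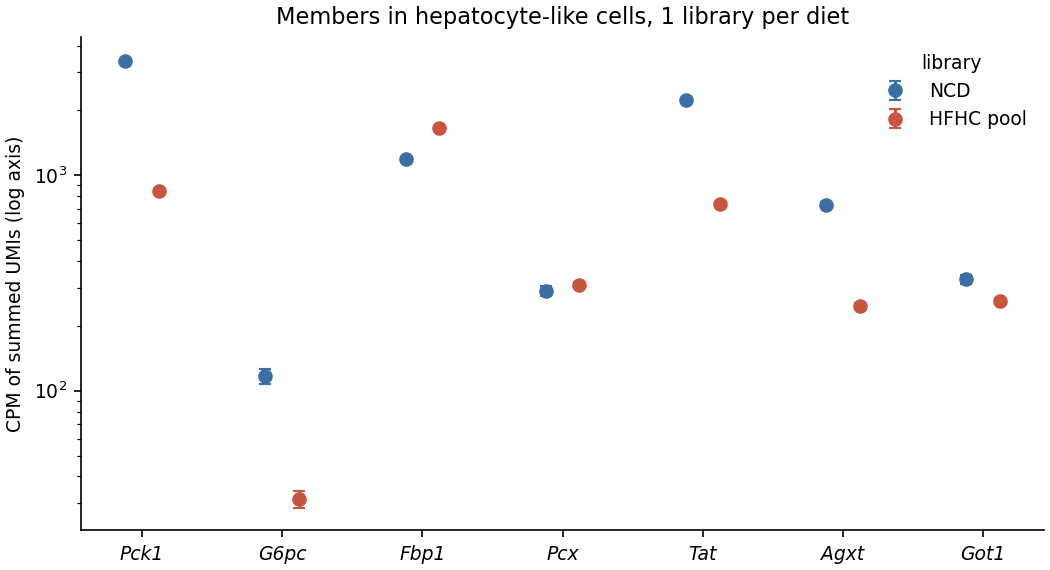
Level of the 7 members in hepatocyte-like cells on a log axis, in CPM of summed UMIs, for the NCD library (blue) and the HFHC pool (red). Bars are exact Poisson 95% intervals, often smaller than the points. Pck1 (3406 against 848 CPM), G6pc (117 against 31.4), Tat (2244 against 739) and Agxt (729 against 246) lie lower in the pool, and Fbp1 (1189 against 1662) higher.

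The share of hepatocyte-like cells with a UMI was compared after each cell was thinned to 500 UMIs, which left 3702 NCD and 7764 pool cells. Pck1 was found in 72.0% (70.5 to 73.4, exact binomial) of NCD cells and 27.4% (26.4 to 28.4) of pool cells, against 3.63% and 1.12% of thinned immune-like cells. Without thinning these shares were 70.8% and 45.5% in hepatocyte-like cells. Tat was found in 61.7% (60.1 to 63.3) against 27.3% (26.3 to 28.3) of thinned hepatocyte-like cells, and in 62.1% against 51.5% unthinned. Agxt was found in 29.8% (28.4 to 31.4) against 10.7% (10.01 to 11.4) of thinned cells, and G6pc in 5.48% (4.77 to 6.27) against 1.52% (1.26 to 1.82). Fbp1 was found in 42.7% (41.1 to 44.3) against 50.4% (49.3 to 51.5). For Pcx the shares were 13.9% (12.8 to 15.1) and 12.8% (12.04 to 13.5), with overlapping intervals and an order opposite to that of its level, so no order is read from them, and for Got1 14.8% (13.7 to 15.99) and 11.5% (10.8 to 12.2). Without thinning, where pool cells are deeper, the shares of Pcx (17.2% and 31.1%) and Got1 (18.6% and 26.9%) were higher in the pool.

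The libraries filled different hepatocyte clusters, so each member was also compared within the 5 clusters that held at least 50 cells of each. Cluster 0 held 52.2% of NCD hepatocyte-like cells and 1.30% of those of the pool, and clusters 5 and 8 held 30.7% and 24.1% of the pool against 3.57% and 0.993% of the NCD library. The log2 ratio of Pck1 ran from -2.62 to -1.56 over the 5 clusters, that of G6pc from -2.59 to -1.44, that of Tat from -1.999 to -1.29 and that of Agxt from -1.96 to -0.85. For these 4 genes every value was below 0, and its interval lay below 0 in each of the 5 clusters except for G6pc in cluster 8, where 2 NCD UMIs gave an interval from -3.36 to 1.64. The ratio of Fbp1 was above 0 in all 5 clusters, from 0.20 to 1.24, that of Got1 was below 0 in all 5, from -0.77 to -0.25, with intervals that reach 0 in clusters 0, 8 and 10, and that of Pcx took both signs, from -0.18 to 0.30. In cluster 5, led by genes that include the periportal Sds, Hal and Gls2, 252 NCD cells held Pck1 at 6493 CPM and 2724 pool cells at 1060 CPM.

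**Figure D2:**
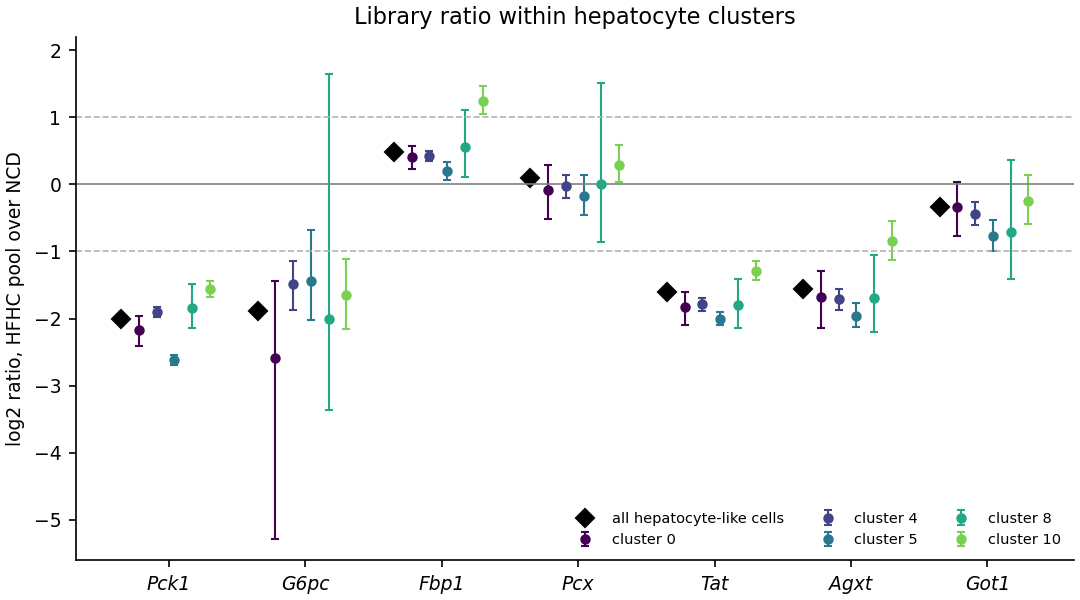
Log2 ratio (HFHC pool over NCD) for each member, over all hepatocyte-like cells (black diamonds) and within 5 clusters (coloured points, with 95% counting intervals). Dashed lines mark 2-fold. Pck1, G6pc, Tat and Agxt are below 0 in each cluster shown and Fbp1 is above 0 in each, while Pcx lies on both sides of 0.

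Rank correlations between members across single hepatocyte-like cells were low. In cells thinned to 1000 UMIs, the 21 pairs of members had Spearman's rho between -0.05 and 0.39 in 1329 NCD cells, with a median of 0.04, and between -0.02 and 0.11 in 5153 pool cells, with a median of 0.03. The highest value was that of Pck1 and Tat in the NCD library, 0.39, where the same pair reached 0.08 in the pool. Both genes had more UMIs per cell in the NCD library, and these are descriptions in sparse counts of 1 library each. Sparse counts pull rho towards 0, so how closely the members are coupled cannot be judged from these values.

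To follow the members along the lobule, cells were ranked within each library by the pericentral share of their UMIs from zone genes and divided into 3 parts of equal size, called periportal, middle and pericentral. Only cells with at least 10 such UMIs could be ranked, which were 457 of 7052 NCD cells and 1608 of 8877 pool cells. In the NCD library the first part held only cells with no pericentral UMI, tied cells were split in file order, and the last part began at a share of 80%. In the pool the cuts lay at 75% and 92.9%, so a part of one library does not match the same part of the other in share. Genes not used for the ranking followed it: Glul, the glutamine synthetase of the pericentral edge, went from 49.7 to 9159 CPM in the NCD library and from 441 to 10097 CPM in the pool, and Hal, a periportal histidine-degrading enzyme, went from 1144 to 41.3 CPM and from 956 to 146 CPM. Pericentral cells were shallower than periportal ones, with medians of 1056 against 2094 UMIs in the NCD library and 1367 against 3762 in the pool. Of the ranked cells, 46.0% of NCD cells and 32.5% of pool cells lay within 5 percentage points of a cut.

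Fbp1, Agxt and Got1 were higher in periportal than in pericentral cells by more than 1.5-fold in both libraries, and 0 members were past that fold in the pericentral direction. Among 984 genes with at least 100 UMIs in each library, 3.66% were past 1.5-fold periportal in both and 5.39% past 1.5-fold pericentral in both. Fbp1 went from 1285 CPM in periportal to 450 CPM in pericentral cells of the NCD library (log2 ratio -1.50, -1.84 to -1.20) and from 1846 to 906 CPM in the pool (-1.02, -1.13 to -0.92). Agxt went from 699 to 344 CPM in the NCD library (-1.01, -1.41 to -0.65) and from 244 to 128 CPM in the pool (-0.92, -1.21 to -0.65). Got1 went from 330 to 179 CPM in the NCD library (-0.86, -1.44 to -0.35) and from 243 to 118 CPM in the pool (-1.03, -1.34 to -0.75).

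Pck1 was higher in periportal cells of both libraries. Its log2 ratio of pericentral over periportal cells was -0.54 (-0.70 to -0.39) in the NCD library, against -1.34 (-1.49 to -1.19) in the pool. With cells thinned to 1000 UMIs these ratios were -0.62 and -0.76, a smaller gap between the libraries, and the difference was not tested. Its level was 3211 CPM in periportal and 2199 CPM in pericentral NCD cells, and 1087 and 429 CPM in the pool. Tat showed a weaker gradient, with log2 ratios of -0.30 (-0.49 to -0.11) and -0.39 (-0.53 to -0.26). For G6pc the values were -0.38 (-1.08 to 0.22) in the NCD library and 0.34 (-0.25 to 0.89) in the pool, and for Pcx 0.26 (-0.24 to 0.73) and -0.01 (-0.21 to 0.18), so no zonal difference of either gene was detectable at this depth. The median over the members was -0.54 for NCD and -0.92 for the pool, beside 0.03 and -0.06 over all genes tested. With cells thinned to 1000 UMIs only Pck1 kept 100 UMIs in each library and was past 1.5-fold in both. Under the same thinning Fbp1 stood at -2.15 for NCD and -0.24 for the pool, the latter within 1.5-fold, and Tat turned to 0.65 in the NCD library.

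**Figure D3:**
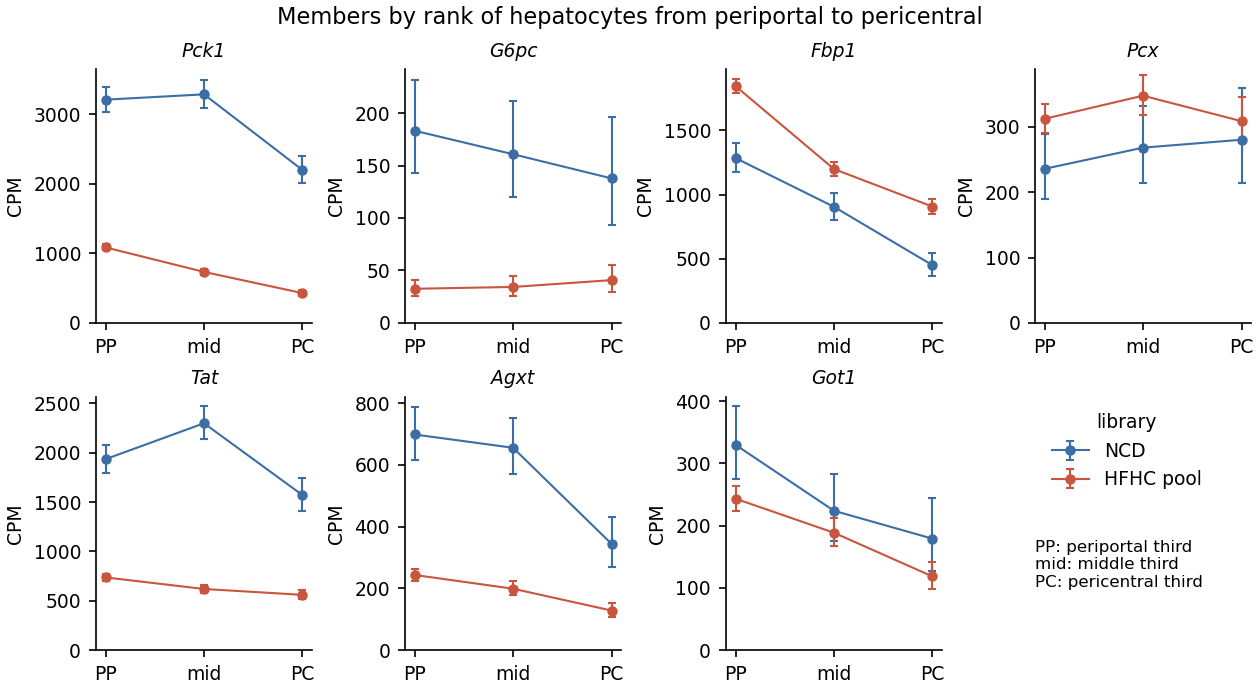
Level of each member (CPM, linear axes from 0) in hepatocyte-like cells ranked within each library from periportal (PP) over middle (mid) to pericentral (PC), in the NCD library (blue) and the HFHC pool (red). Bars are exact Poisson 95% intervals. Fbp1, Agxt and Got1 decline towards PC in both libraries, Pck1 declines from 3211 to 2199 CPM and from 1087 to 429 CPM, and Pcx and G6pc show overlapping intervals between PP and PC.

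To compare the libraries at matched shares, 1 pair of cuts, at 66.7% and 91.7% pericentral share, was set for both, an alternative chosen after seeing the data. It left 282, 57 and 118 NCD cells and 406, 614 and 588 pool cells from the periportal to the pericentral side. Pck1 was lower in the pool by 3.03, 2.90 and 4.73-fold in these groups, Tat by 2.79, 3.07 and 2.68-fold and G6pc by 5.09, 4.47 and 4.44-fold. The values of G6pc came from 107, 19 and 25 NCD UMIs. Agxt was lower by 2.78, 2.47 and 1.70-fold, the last within 2-fold, and Fbp1 was higher in the pool by 1.69, 1.81 and 2.53-fold. Pcx was higher by 1.19, 1.75 and 1.06-fold, the last with a log2 interval of -0.34 to 0.60. The log2 ratio of Got1 was -0.18 (-0.42 to 0.08), 0.18 (-0.41 to 0.97) and -0.71 (-1.25 to -0.06). No direction of Got1 is read in the periportal and middle groups, where the intervals include 0. Glul still differed within the groups, with 114 CPM (NCD) against 329 CPM in the periportal one, and its part in the ratios was not tested.

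No other gene tested in the enzyme lists was past 2-fold lower, under scaling to all UMIs or to the reference list. The lists leave out the members, and both were chosen with earlier results of these data known. Their contrast with the members is therefore a description only. The counts of higher genes depended on the scaling and are given for both. Of 21 other genes of the gluconeogenesis list with enough UMIs, 0 were past 2-fold lower in the pool and 4 past 2-fold higher. Over all genes tested these shares were 7.47% and 5.6%. The list also holds mitochondrial carriers such as Slc25a1 that are not specific to gluconeogenesis, and its median log2 ratio was 0.63. Scaled to the reference list, 14 of the 21 were past 2-fold higher, against 22.9% of all genes, and their median was 1.17. The highest were Eno1, an enolase shared with glycolysis (169 against 419 CPM, log2 ratio 1.31), the citrate carrier Slc25a1 (219 against 520 CPM, 1.25) and Got2, the mitochondrial partner of Got1 (698 against 1545 CPM, 1.15), and Ldha was the remaining one (390 against 798 CPM, 1.03), named after its values were seen. The lowest were the pyruvate carrier subunit Mpc2 (508 against 287 CPM, -0.83), Slc37a4, the glucose-6-phosphate transporter that serves G6pc (20.6 against 12.02 CPM, -0.78), and the alanine aminotransferase Gpt (171 against 145 CPM, -0.24).

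Of 39 other genes of amino acid catabolism, 0 were past 2-fold lower and 3 past 2-fold higher, against 7.47% and 5.6% of all genes tested. Their median was 0.31. With the reference list scaling 14 were higher, against 22.9% of all genes, and the median was 0.85. The highest were Bckdha, a subunit of the branched-chain ketoacid dehydrogenase (49.4 against 126 CPM, log2 ratio 1.34), the ornithine aminotransferase Oat (310 against 714 CPM, 1.20) and Agxt2, a mitochondrial aminotransferase (93.7 against 209 CPM, 1.15). The lowest were Cth, which makes cysteine (910 against 536 CPM, -0.77), Etnppl (571 against 337 CPM, -0.76) and Haao of the kynurenine pathway (1582 against 1046 CPM, -0.60). In 29 of these genes with zonal values, 7 were past 1.5-fold periportal in both libraries and 2 pericentral, against 3.66% and 5.39% of 984 genes. The 7 urea cycle genes had a median of -0.02 with 0 past 2-fold either way, and under the reference list scaling a median of 0.51 with 1 past 2-fold higher, Cps1. Asl (-0.19), Ass1 (-0.16) and the ornithine carrier Slc25a15 (-0.08) were the lowest, and Cps1 (0.54), Otc (0.35) and Nags (0.10) the highest. Of 6 with zonal values, 4 were periportal in both libraries, against the same 3.66% of all genes. Cps1, Ass1 and Arg1 among them, and Hal, Sds, Gls2 and Oat of amino acid catabolism, had been listed as zonal genes to check the ranking. These zonal counts are therefore a description only. Of 15 other genes of the gluconeogenesis list with zonal values, 2 were periportal in both libraries and 0 pericentral.

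Among 24 genes of hormonal and transcriptional control, 5 were past 2-fold lower in the pool and 1 past 2-fold higher, with a median of -0.36. Over all genes tested, 7.47% were lower and 5.6% higher. With the reference list scaling 5 of the 24 were lower and 2 higher, against 2.51% and 22.9% of all genes. The median of the 24 turned to 0.18. The lowest were Igfbp1, an insulin-repressed and fasting-induced secreted protein (79.3 against 10.3 CPM, log2 ratio -2.94), Cebpb, a transcription factor induced by cAMP and glucocorticoids (530 against 87.9 CPM, -2.59), and Tsc22d3, a glucocorticoid-induced gene (168 against 35.5 CPM, -2.24). The other 2 past the limit were Sik1 (40.5 against 11.2 CPM, -1.85) and Per1 (13.6 against 4.65 CPM, -1.55), named after their values were seen. Hepatocyte-like cells of the NCD library held more immune RNA, with the neutrophil list at 692 against 38.9 CPM. Its part in the ratios of these 5 genes was not tested. Cebpa, which holds the differentiated hepatocyte state, was the highest (214 against 541 CPM, 1.34), followed by Ppara (62.4 against 104 CPM, 0.73) and the glucocorticoid receptor Nr3c1 (92.3 against 113 CPM, 0.30). Of 13 genes of glucose use and lipogenesis, 0 were past 2-fold in either direction and the median was -0.02, against 3 higher (Pklr, Acaca and Pfkfb1) and a median of 0.52 with the reference list scaling. Pklr (0.98), Acaca (0.87) and Pfkfb1 (0.63) were the highest, and Srebf1 (-0.82) and Acly (-0.30) were among the lowest.

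**Figure D4:**
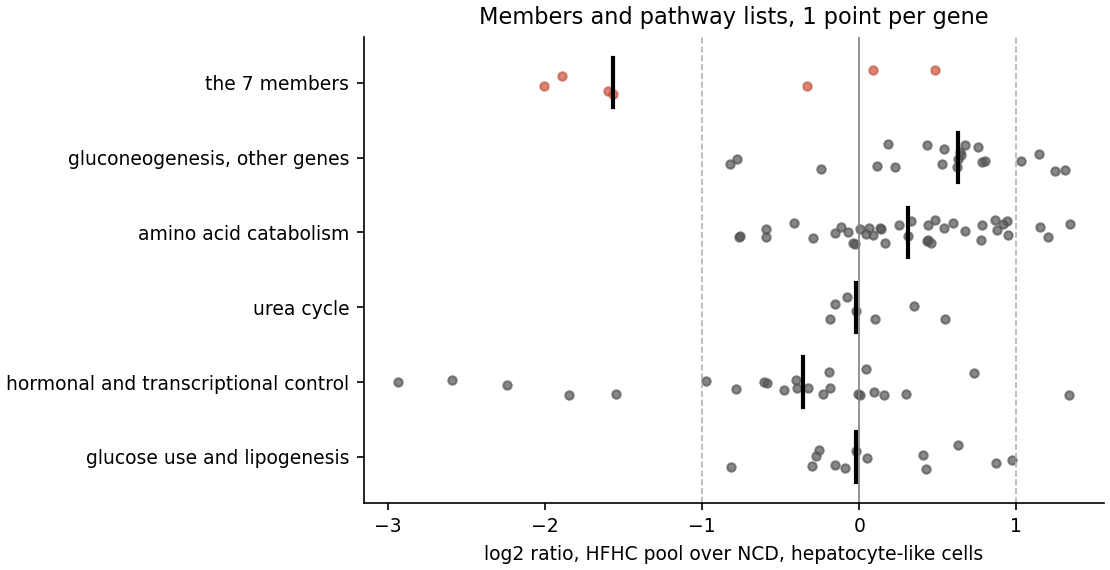
Log2 ratio (HFHC pool over NCD) in hepatocyte-like cells, 1 point per gene, for the 7 members (red) and 5 pathway lists (grey). Black bars are medians and dashed lines mark 2-fold. The members' median is -1.57, and those of the lists run from -0.36 to 0.63. Members and lists were chosen with earlier results of these data known, so their contrast is a description only.

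Immune-like cells carried small amounts of every member. To see whether these followed free hepatocyte RNA, the level in immune-like cells was divided by that in hepatocyte-like cells of the same library and set beside the same ratio of 24 genes for secreted hepatocyte proteins such as Alb and Ttr. These reference genes ran from 2.30% to 4.01% in 12826 immune-like cells of the NCD library and from 3.13% to 4.90% in 4842 of the pool. Got1 was above that range in both libraries, and the other 6 members were above it in neither. Of all genes with at least 100 hepatocyte UMIs, 89.8% (NCD) and 90.4% (HFHC pool) were above the range.

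Pck1 reached 80.0 CPM (77.1 to 83.0) in immune-like cells of the NCD library, 2.35% (2.26 to 2.44) of its hepatocyte level, and 25.2 CPM (23.3 to 27.3) in those of the pool, 2.98% (2.74 to 3.23). Tat reached 51.5 and 25.3 CPM, or 2.29% and 3.42%. Agxt reached 13.9 and 8.22 CPM, or 1.90% and 3.34%, and G6pc 3.09 and 1.36 CPM, or 2.65% and 4.32%. Fbp1 reached 25.1 and 52.7 CPM, or 2.11% and 3.17%, and Pcx 7.98 and 9.73 CPM, or 2.75% and 3.14%. In the NCD library the intervals of Fbp1 and Agxt lay below the lowest reference gene. With called doublets left out, the 6 members other than Got1 were lower, at 0.720% (Agxt) to 1.67% (Pcx) in the NCD library, where Pck1 stood at 1.15%, and at 1.66% (Pck1) to 2.39% (G6pc) in the pool. The reference median was then 2.13% and 2.25%. The reference genes ran from 1.07% to 2.81% in the NCD library and from 1.62% to 3.32% in the pool. Agxt, Fbp1 (0.839%) and Tat (0.998%) lay below that NCD range.

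The library ratios of these 6 members in immune-like cells had the signs of those in hepatocyte-like cells. The log2 ratio in pooled immune-like cells was -1.66 (-1.79 to -1.54) for Pck1, -1.02 (-1.16 to -0.90) for Tat, -1.16 (-1.79 to -0.62) for G6pc and -0.75 (-0.998 to -0.52) for Agxt. It was 1.07 (0.95 to 1.19) for Fbp1 and 0.29 (0.04 to 0.54) for Pcx, while the reference list as a whole gave -0.14. With called doublets left out, the ratio of Agxt was -0.23 (-0.60 to 0.12) and that of Pcx 0.32 (-0.02 to 0.65), both with intervals that reach 0, that of Tat was -0.74 (-0.94 to -0.55), that of Pck1 -1.49 (-1.67 to -1.32), that of G6pc -1.24 (-2.14 to -0.51) and that of Fbp1 1.47 (1.28 to 1.67). Pck1 was 3.17-fold lower in immune-like cells of the pool and 4.02-fold lower in its hepatocyte-like cells.

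The levels differed between immune classes, and so did those of the reference genes. Pck1 ran from 31.0 CPM in plasma-like cells to 151 CPM in neutrophil-like cells of the NCD library, where the median of the reference genes ran from 0.684% to 4.27%. In neutrophil-like cells of the pool the reference median was 9.70%, and Pck1 reached 106 CPM (12.5% of the hepatocyte level), Fbp1 157 CPM (9.46%) and Tat 76.9 CPM (10.4%). Kupffer-like cells of the pool held 7.27 CPM of Pck1, 0.857% (0.569 to 1.24) of the hepatocyte level, below the lowest reference gene at 1.34%, compared with 72.5 CPM or 2.13% in those of the NCD library. With called doublets left out, the NCD value was 50.03 CPM.

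Cells with fewer than 200 genes, which were left out of all classes, also held the members. The 6266 such cells of the NCD library held Pck1 at 1476 CPM, 43.3% (41.5 to 45.3) of the hepatocyte level, and the 7 members lay between 39.1% and 51.0%, beside 48.1% for the reference list, and the intervals of Pck1, Fbp1, Tat and Agxt lay below that value. The 915 such cells of the pool held Pck1 at 213 CPM, 25.1% (19.8 to 31.3), and the members lay between 25.1% and 43.4%, below the 68.6% of the reference list. The highest, G6pc, came from 5 UMIs, and its interval of 14.0% to 102% includes that value.

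Among the 7 members, Got1 stood apart in immune-like cells. It reached 113 CPM (109 to 116) in pooled immune-like cells of the NCD library, 34.2% (32.3 to 36.2) of its hepatocyte level and 10.7 times the reference median, and 48.6 CPM (45.9 to 51.4) in the pool, 18.5% (17.4 to 19.8) and 5.03 times the reference median. Of all UMIs of the 7 members, Got1 made up 3.97% in NCD hepatocyte-like cells and 38.3% in NCD immune-like cells. Kupffer-like cells held 3324 of the 4084 Got1 UMIs of NCD immune-like cells and 202 of the 1219 of the pool. They were 3344 of 12826 immune-like cells in the NCD library and 466 of 4842 in the pool, so the pooled levels also depend on the mix of classes.

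Within the NCD library Got1 was highest in Kupffer-like cells, at 198 CPM (192 to 205), 60.2% (56.8 to 63.8) of the hepatocyte level. The other immune classes with at least 100 cells held 29.4 CPM (24.2 to 35.5, neutrophil-like) to 53.1 CPM (46.4 to 60.5, T cell-like), in the order neutrophil, dendritic, B cell, NK/ILC1, plasma cell, monocyte/macrophage and T cell, and the intervals of the neighbours in this order overlap. In Kupffer-like cells of the pool Got1 stood at 52.4 CPM (45.4 to 60.2), a log2 ratio of -1.91 (-2.13 to -1.71) or 3.77-fold lower. There it did not stand out from the other classes, which ran from 33.3 CPM (neutrophil-like) to 59.2 CPM (plasma-like). After thinning to 500 UMIs, Got1 was found in 9.21% (8.23 to 10.3) of 3225 NCD Kupffer-like cells and 2.16% (1.04 to 3.94) of 463 of the pool, against 49.6% and 30.9% unthinned. With called doublets left out, Got1 in Kupffer-like cells was 200 CPM (193 to 207) and 52.5 CPM (45.5 to 60.3). The reference list then made up 0.129% and 0.110% of their UMIs, and the difference in Got1 was as large without doublets. The filters on cells kept 49509045 of 53720863 UMIs in the NCD library and 52044785 of 71981673 in the pool. Kupffer-like cells were deep, with medians of 4586.5 (NCD) and 8745.5 UMIs (pool). What part the upper limit on genes per cell had in their library differences was not tested.

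In the pool Got1 was above the reference range in every immune class except neutrophil-like cells, where it stood at 12.7% of the hepatocyte level inside a range of 7.26% to 16.2%, and basophil-like cells, with 17 cells. In the NCD library it was above the range in each class except basophil-like cells, which held 1 Got1 UMI in 72 cells. A place above the range is common, with 89.8% (NCD) and 90.4% (pool) of all genes there in pooled immune-like cells. The shares of all genes by class are not given here, so these calls set Got1 apart only from the other members. Dendritic-like cells held 34.2 CPM (29.5 to 39.6) in the NCD library and 53.5 CPM (47.3 to 60.3) in the pool, opposite in direction to the Kupffer-like cells. The class joins 2 clusters in different shares: cluster 15, led by Siglech, was 56.6% of its NCD cells and 39.5% of its pool cells, and cluster 16, led by Xcr1, the rest. Got1 was higher in the pool within each, at 27.9 against 45.8 CPM in cluster 15 and 39.3 against 57.5 CPM in cluster 16.

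**Figure D5:**
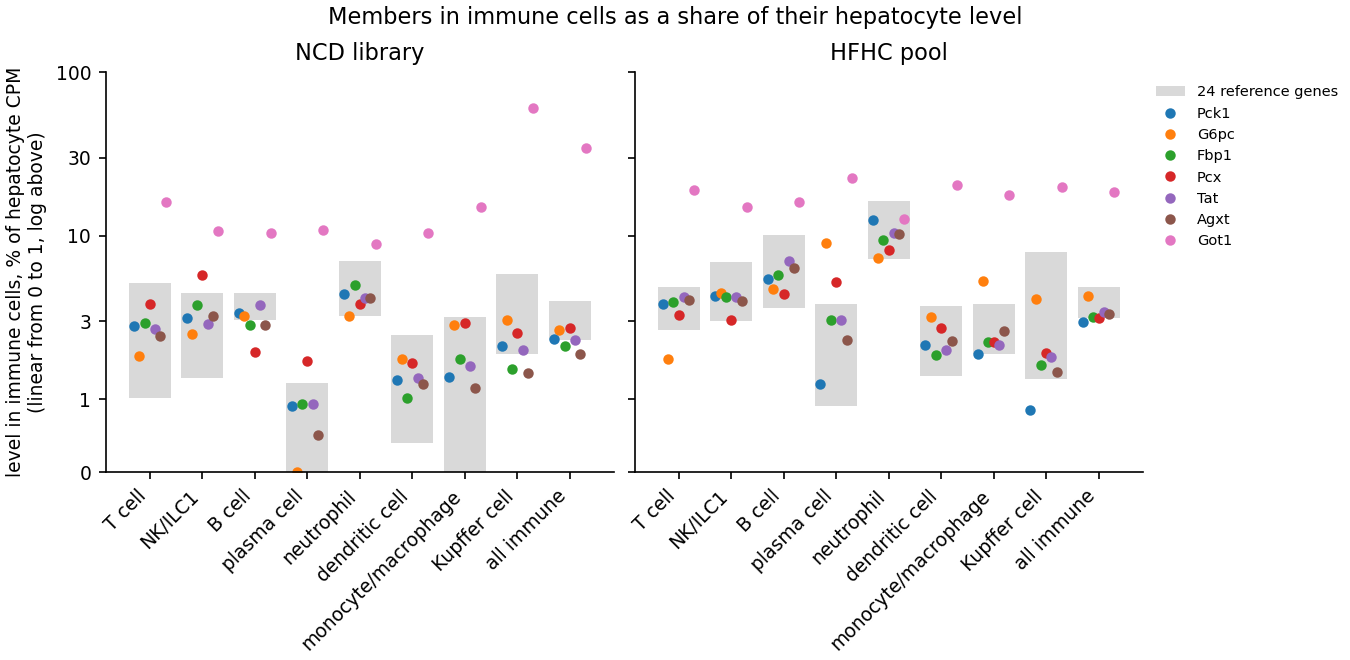
Level of each member in immune classes as a percent of its CPM in hepatocyte-like cells of the same library, on an axis that is linear from 0 to 1 and logarithmic above. Grey boxes span the 24 reference genes. Got1 (pink) lies above the box in all classes shown except neutrophil-like cells of the pool, and at 60.2% in NCD Kupffer-like cells, while no other member has an interval wholly above a box.

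Over the 22 profiles of classes and libraries with at least 50 cells, the genes most like each member were found among 5519 genes by Pearson's r of log2(CPM + 1), as a description. For Pck1 these were Serpina1e (0.99), Mup3 (0.97) and Apoc4 (0.97), for Tat Nudt7 (0.98), Apoc3 (0.98) and Mup3 (0.97), and for Agxt Cyp1a2 (0.98), Etnppl (0.97) and Hsd3b5 (0.97). For Fbp1 they were Aldh1a7 (0.98), Dmgdh (0.98) and Bhmt2 (0.98), for Pcx Ak4 (0.97), 0610005C13Rik (0.96) and Sult1b1 (0.96), and for G6pc 1300017J02Rik (0.96), Col18a1 (0.95) and Klkb1 (0.95). The values of Got1 were lower, with Lap3 (0.88), Fech (0.87) and Enpp2 (0.86). Profiles of 1 library share their free RNA, and genes are not independent replicates.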

How the data were processed

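BD Rhapsody whole-transcriptome libraries of mouse liver cells were deposited as counts. Per the file headers, the authors made them with the BD Rhapsody WTA Analysis Pipeline 1.10.1 on GRCm38 with GENCODE M19: error-corrected UMI counts per cell and gene, unscaled. Seurat is named in the submitters' processing notes. Deposited counts were kept for cells with 200 to 4000 genes and at most 25% mitochondrial UMIs, normalized by SCTransform (sctransform 0.4.2), integrated by reciprocal PCA in Seurat 5.3.0 (30 components) on 3993 features without the members, and clustered (20 neighbours, resolution 0.8). Clusters took the name of the best-scoring marker list with at least 3 markers in 10% of cells. These naming thresholds were set after the clusters were seen. Cluster 0, with 52.2% of NCD hepatocyte-like cells, scored 2.59 for the erythroid list and 1.85 for the hepatocyte list. It took the hepatocyte name because fewer than 3 erythroid markers reached 10% of its cells. A shallow cluster (3657 pool cells) and one led by T cell genes (719 NCD and 1567 pool cells) stayed unnamed. Doublets were called by Scrublet (scanpy 1.11.5) in 8.30% and 2.10% of cells and kept, except in an alternative.

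UMIs were summed per class and library and divided by their total (CPM). Ratios are on the log2 scale, after adding 1 UMI to each sum, for genes with at least 100 UMIs. A member was called past 2-fold between libraries, past 1.5-fold between zones in both, or above the reference range when its lower bound exceeded the highest reference gene. Intervals are exact Poisson, exact binomial, or conditional binomial for ratios. With 1 library per diet there is no test. Named pathway genes are the 3 highest and 3 lowest ratios per list. 1 gene that this rule names is not reported here. The calculation was tested on simulated data. The members and lists were chosen with earlier results of these data known. The Sample Tag library was not used here.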

Additional observations from a re-analysis of the deposited data

Results flagged for a closer look

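For 4 members, the HFHC pool differed from the NCD library in one direction in hepatocyte-like cells and in the opposite direction in another class, with both counting intervals clear of 0. With 1 library per diet, these differences between classes were not tested. In endothelial-like cells the log2 ratio of the pool over the NCD library was 0.39 for Pck1, 1.01 for Tat, 1.41 for Agxt and 0.76 for Got1, against negative values of all 4 in hepatocyte-like cells. The reference list of secreted hepatocyte genes was 1.95 higher on the log2 scale in endothelial-like cells of the pool, where it made up 0.894% of UMIs against 0.231% in the NCD library. Pck1, Tat and Agxt there stood at 18.5%, 21.1% and 22.8% of their hepatocyte level, beside a reference median of 22.3%. Got1 stood at 35.9% (32.2 to 39.9), above the highest reference gene at 26.7%. Got1 was also higher in the pool in plasma-like cells (0.69, from 29 and 84 UMIs) and in dendritic-like cells (0.64, from 184 and 266 UMIs). The reference list gave -0.11 in dendritic-like and 0.96 in plasma-like cells.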

How the results depend on the processing

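The library contrast kept 4 members past 2-fold under 12 of 13 alternatives and gave 5 when scaled to the reference list. With cells thinned to 1000 UMIs, members past 1.5-fold between zones in both libraries went from 3 to 1. That member was Pck1, the only one left with enough UMIs, and Fbp1 in the pool went from -1.02 to -0.24. It was 2, without Agxt, when ranked cells were split at the middle. With 1 cut for both libraries it was 3, with Pck1 in place of Got1. With a mitochondrial limit of 10%, and without cluster 0, it was 4, Pck1 being added. The leaving out of cluster 0, the adding of the unnamed clusters, the single pair of cuts, the rescaled pathway lists, the separate dendritic clusters, and the immune ratios and Kupffer-like levels without doublets were chosen after seeing the data. Members above the carry-over range stayed at 1 in each library under all 10 alternatives. This was Got1, except with cells under 200 genes as the source in the pool, where Got1 had too few UMIs there and Fbp1 was called at 8.41%. With that source no value could be given for G6pc in either library or for any pool member but Fbp1. Without doublets the carry-over of Pck1 was 1.15% in place of 2.35% in the NCD library and 1.66% in place of 2.98% in the pool. No member called in the main comparison changed sign. Among values not called, G6pc and Pcx between zones changed sign under several alternatives, Got1 turned to 0.21 between libraries with the reference list scaling and to 0.18 in middle hepatocyte-like cells with 1 pair of cuts, Pcx to -0.0009 between libraries with each cell weighted equally, and Tat to 0.65 between NCD zones after thinning. Without Kupffer-like and monocyte/macrophage-like cells, Got1 in NCD immune-like cells was 11.5% in place of 34.2% of the hepatocyte level. Scaled to the reference list, genes past 2-fold higher went from 4 to 14 in the gluconeogenesis list and from 3 to 14 in amino acid catabolism. They went from 0 to 1 in the urea cycle, from 1 to 2 in hormonal control and from 0 to 3 in glucose use. Over all genes the share went from 5.6% to 22.9%. No paired analysis was possible because each diet has 1 library. Depth limits G6pc most, with 30 to 80 UMIs per zone group.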
